A study of Mus musculus with 18 samples.

Results

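The S100 calcium-binding protein genes were followed across leukocytes that stayed in an inflamed tissue, leukocytes that had left it for the draining lymph node, and leukocytes of the steady-state node. The members were 10 genes chosen by symbol, S100a1, S100a3, S100a4, S100a6, S100a8, S100a9, S100a10, S100a11, S100a13 and S100b, out of 49585 genes in the deposited count table. All 10 were found in the table by their Ensembl identifiers. In the mouse genome (build mm10) 9 of them lie on chromosome 3, and S100b lies alone on chromosome 10, from 76253853 to 76261159.

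S100 proteins are small calcium sensors with paired EF-hand loops that work as dimers inside the cell, where calcium binding exposes a surface for partner proteins such as annexins and nonmuscle myosin. The products of S100a8 and S100a9 form the heterodimer calprotectin, the main calcium- and zinc-binding protein of the neutrophil cytosol and a widely used marker of inflamed joints. Once released, several family members act as alarmins on receptors such as Toll-like receptor 4 and the receptor for advanced glycation end products.

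Kaede mice carry a protein that light turns permanently from green to red, which marks the cells present in a tissue at the time of exposure. The mice, aged 6 to 10 weeks, received Th1-polarized OT-II CD4+ T cells, were immunized with 100 µg ovalbumin (OVA) in complete Freund's adjuvant, and were challenged 10 days later with 100 µg heat-aggregated ovalbumin (HAO) in the footpad (joint) or ear pinna (skin). Tissues were photoconverted on day 3 and red CD45+ cells were sorted 24 hours later from the tissue (joint nonmigrated, skin nonmigrated) or from its draining node (joint migrated, skin migrated), each library from a pool of 8 to 18 mice. The last groups, also CD45+ and Kaede, are labelled steady state and come from the nodes draining the joint and the skin. The sample titles of the joint node carry PBS and KG and those of the skin node carry Naive, without saying whether these mice received T cells, OVA or photoconversion. The source labels describe these cells too as leukocytes that moved from joint or ear into the node, and the labelled protocol gives a red gate for all samples. The labels therefore do not settle whether the steady-state cells were red or green, and what migrated cells are compared with in the node depends on it. There were 3 libraries in each of the 6 groups, and p-values measure the spread between these libraries. A pool size is known for the inflamed groups only, so whether each steady-state library was a pool is not settled.

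Levels are given in CPM, each gene's count scaled to the TMM-normalized total of its library, and each value after ± is a standard deviation over 3 libraries. Assigned counts ran from 19239531 to 43814403 per library. The 6 inflamed skin libraries held 22528895 counts at most and the 6 inflamed joint libraries at least 35554698, and reads assigned to no feature made up 0.0925% to 0.135% in the former and 0.293% to 0.562% in the latter, so that library depth and site cannot be told apart in the inflamed groups. Skin node libraries held at least 28577566 counts and skin migrated libraries 22378238 at most, so depth cannot be told apart from that comparison either. Joint migrated and joint node libraries overlapped in depth. By their markers, the 6 dendritic cell genes summed to 2034 to 5497 CPM in the 6 migrated libraries and the 5 B cell genes to 2744 to 4308 CPM in the 6 steady-state libraries. Skin nonmigrated replicate 3 stood apart from the other skin nonmigrated libraries, with monocyte and macrophage genes at 6481 CPM against 2373 and 3501 CPM. In these bulk samples, fewer cells of a type and less RNA per cell cannot be told apart.

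Genes were called where edgeR's quasi-likelihood test gave an adjusted p (Benjamini-Hochberg) under 0.05 and the log2 fold change was beyond 1 in either direction. Nonmigrated and migrated cells were sorted at the same harvest. Here fell, rose and migration change describe a difference between these populations, not a course within the same cells. Comparing migrated with nonmigrated cells of the joint, 7 of 10 members were called, against 34.3% of all tested genes (16% higher and 18.4% lower): S100a1, S100a6, S100a8, S100a9, S100a11 and S100b fell and S100a3 rose. Their median log2 fold change was -1.36, and that of all 16777 tested genes 0.02. Between skin migrated and skin nonmigrated cells 5 were called, against 35.4% of tested genes (15.7% higher and 19.7% lower): S100a1, S100a6, S100a8 and S100a9 fell and S100a3 rose. The median was -1.08 over the 10 members, -0.91 without S100b, which was too low there for a fold, and 0.01 over all genes.

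Both migrated populations stood far above their steady-state nodes for most members. Of the 9 members tested there, 7 rose in joint migrated cells, where 16.9% of 17107 tested genes rose, and S100a8 and S100a9 fell, where 7.31% fell (24.2% either way). The same 7 rose in skin migrated cells over the skin node, where 21.5% of tested genes rose, 15% fell and 36.5% did either. The median log2 fold change of the members was 1.92 in the joint and 2.47 in the skin, against -0.02 and 0.00 over all genes. These comparisons share the migrated libraries with those against the nonmigrated cells.

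Between the sites, S100a8, S100a9 and S100b were higher in joint than in skin nonmigrated cells, 3 of 10 against 5.45% of tested genes called higher, 8.86% called lower and 14.3% called either way. In migrated cells 1 member, S100a9, was called, against 1.14% of tested genes (0.56% higher and 0.578% lower). Between the steady-state nodes S100a4, S100a6, S100a8 and S100a9 were higher in the joint node, 4 of 9 against 3.23% (0.655% lower and 3.89% either way). The member medians of these comparisons were 0.63, -0.15 and 0.70, beside 0.01, -0.00 and 0.00 over all genes. Of the migration changes, 0 differed between the sites by edgeR, where 6.13% of tested genes did (3.96% above and 2.17% below 0), although 2 members had an unadjusted p under 0.05 and DESeq2 called 1. All 10 estimates of that difference lay below 0, with a median of -0.40 against -0.01 over all genes. That of S100b (-2.09, SE 8.12) rests on 0 counts in every skin migrated library, and those of S100a8 and S100a9 changed sign with 1 library left out. The shared direction is therefore no result about the members as a set. The counts over all genes also varied with single libraries. With 1 library left out, 582 to 2610 genes were called for the difference of migration changes in place of 1029, the most without skin nonmigrated replicate 3, and 58 to 171 for joint over skin migrated cells in place of 191, with 63 at most unless the library was skin migrated replicate 2. No library holds an inflamed node as a whole, so migrated cells were set against the steady-state node. By these changes 4 of 9 members differed between the sites (the migrated-over-node difference), all of them smaller or more negative in the joint. Of tested genes 3.78% were called in that direction, 2.33% in the other and 6.11% in either.

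**Figure D1:**
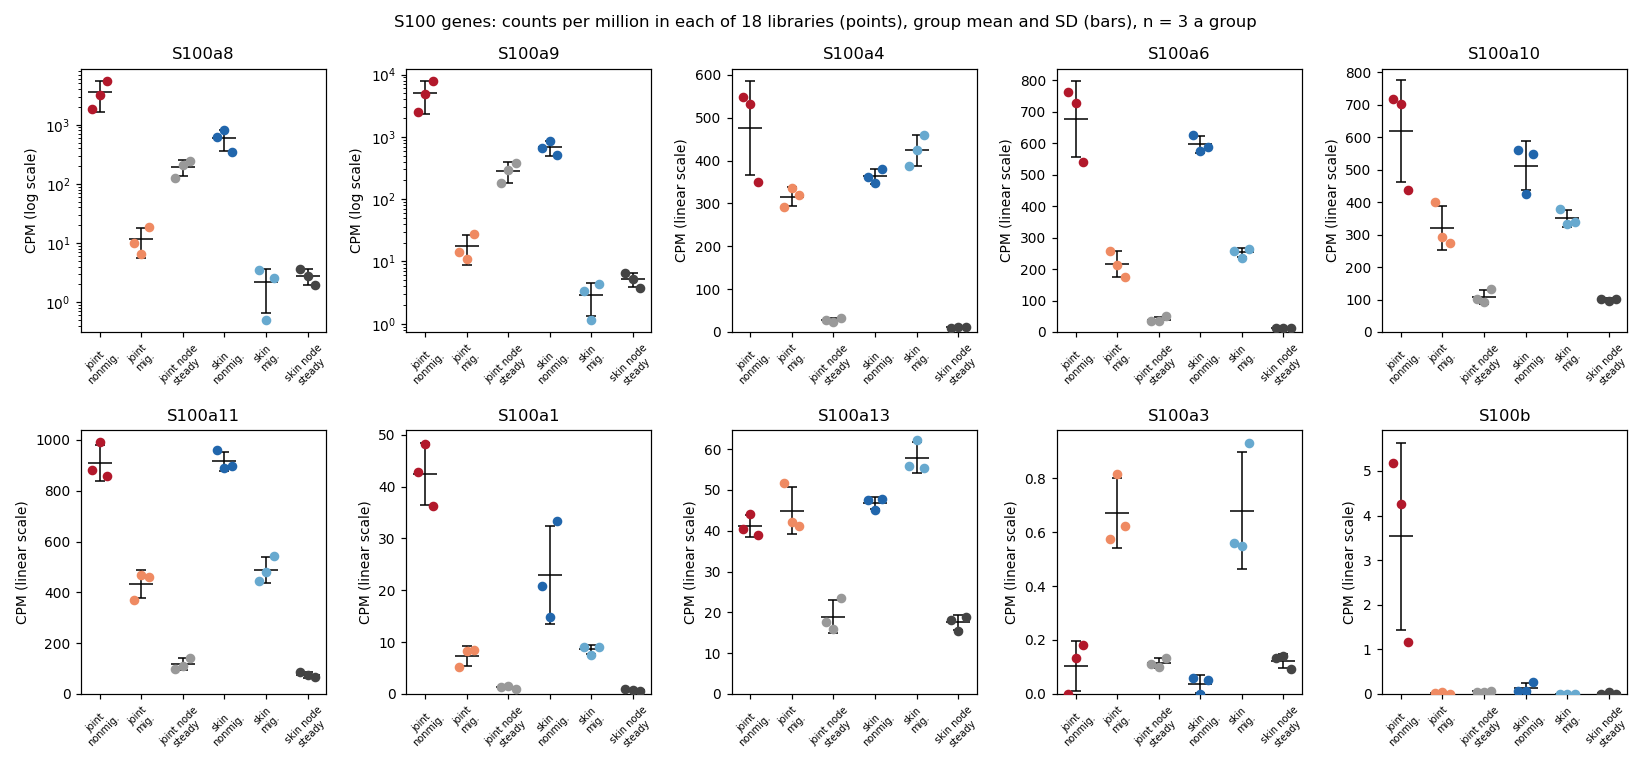
Levels (CPM) of the 10 S100 genes in each of the 18 libraries (points) with the mean and SD of 3 libraries (bars). The vertical axis is logarithmic for S100a8 and S100a9 and linear from 0 for the others. S100a8 lies at 1846 CPM or above in every joint nonmigrated library and at 18.4 CPM or below in every joint migrated library, whereas S100a13 stays between 38.9 and 62.2 CPM in all 12 inflamed libraries.

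S100a8 and S100a9, the calprotectin genes, are neighbours on chromosome 3 (90668978 to 90670035, plus strand, and 90692632 to 90695721, minus strand) that are transcribed towards each other with 22.6 kb between their ends. Because these neighbours had the largest migration changes of the members, the sequence before each start is shown, from the RefSeq promoter table of build GRCm38.p6, 5′ to 3′ on the gene's own strand. Capitals mark matches, on either strand, to TATAAA (the TATA box core), TTNNGCAA (C/EBP family) or GAGGAA (the core bound by PU.1 and other ETS factors). The stretch of S100a9 is chr3:90695722-90695971. That of S100a8 is chr3:90668821-90668977, which ends where its GENCODE transcript begins, and the core is chr3:90669029-90669058, before the RefSeq start 93 bases further in.
S100a9 upstream: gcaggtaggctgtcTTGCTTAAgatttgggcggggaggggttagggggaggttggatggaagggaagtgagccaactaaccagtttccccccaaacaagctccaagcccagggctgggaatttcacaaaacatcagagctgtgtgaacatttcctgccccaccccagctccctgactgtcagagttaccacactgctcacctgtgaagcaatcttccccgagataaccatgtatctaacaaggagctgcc
S100a8 upstream: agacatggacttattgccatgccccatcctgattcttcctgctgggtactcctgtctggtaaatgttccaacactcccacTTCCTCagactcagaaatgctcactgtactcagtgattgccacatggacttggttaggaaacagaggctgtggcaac
S100a8 core: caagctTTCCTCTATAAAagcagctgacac
In the 250 bases before its RefSeq start, S100a8 held GAGGAA on the opposite strand with its first bases 170 and 36 bases upstream, and TATAAA 30 bases upstream, directly after the nearer ETS core. S100a9 held the C/EBP pattern on the opposite strand 236 bases upstream, and its TATAAA opens at base 1 of the RefSeq transcript, outside the window. Among 32851 RefSeq promoters of the same length, 12.4% hold TATAAA, 9.56% the C/EBP pattern and 23.3% GAGGAA. A match is a description of the letters, not of a bound site.

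In joint nonmigrated replicates 1 to 3, S100a8 stood at 1846, 3196 and 5591 CPM, and S100a9 at 2474, 4872 and 8026 CPM. In joint migrated cells the values were 10.1, 6.63 and 18.4 CPM for S100a8 and 14.4, 10.9 and 27.8 CPM for S100a9. The groups were more than an order of magnitude apart for both genes, although the nonmigrated libraries themselves differed widely. S100a8 fell by 8.24 on the log2 scale (SE 0.744, 302-fold, adjusted p 4.46e-06) and S100a9 fell by 8.18 (SE 0.657, 289-fold, adjusted p 2.05e-06).

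The pair was also lower in migrated cells of the skin, where nonmigrated cells held less of it than in the joint. Skin nonmigrated replicates held 631, 801 and 342 CPM of S100a8 and 659, 873 and 502 CPM of S100a9. Skin migrated replicates held 3.49, 0.499 and 2.53 CPM of S100a8 and 3.35, 1.15 and 4.30 CPM of S100a9. The log2 fold change of S100a8 was -8.08 (SE 0.758, 271-fold, adjusted p 5.62e-06) and that of S100a9 was -7.85 (SE 0.661, 230-fold, adjusted p 2.66e-06). The difference of the migration changes, joint minus skin, was -0.16 for S100a8 (SE 0.832, adjusted p 0.931) and -0.33 for S100a9 (SE 0.717, adjusted p 0.805), with standard errors that leave room for a difference in either direction.

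In nonmigrated cells the joint exceeded the skin, with no overlap of libraries. S100a8 was 5.97-fold higher in joint than in skin nonmigrated cells (log2 fold change 2.58, SE 0.574, adjusted p 0.00733) and S100a9 7.53-fold higher (log2 fold change 2.91, SE 0.515, adjusted p 0.00223). In migrated cells all 3 joint libraries again lay above all 3 skin libraries. S100a9 was higher in the joint (log2 fold change 2.59, SE 0.543, adjusted p 0.0386), but the call was lost when any 1 of the 6 migrated libraries was left out (adjusted p 0.0657 to 0.112), and S100a8 was not called (log2 fold change 2.42, SE 0.626, adjusted p 0.0817).

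The steady-state nodes set the sites apart for this pair. The joint node held 128, 207 and 247 CPM of S100a8 and 179, 293 and 385 CPM of S100a9, all above the joint migrated libraries. The skin node held 3.59, 2.76 and 1.956 CPM of S100a8 and 6.42, 5.21 and 3.82 CPM of S100a9, which overlapped skin migrated cells. Joint migrated cells were 16.2-fold lower than their node for S100a8 (log2 fold change -4.02, SE 0.440, adjusted p 6.22e-06) and 15.8-fold lower for S100a9 (log2 fold change -3.98, SE 0.407, adjusted p 3.18e-06). In the skin the log2 fold changes were -0.31 (SE 0.524, adjusted p 0.613) and -0.77 (SE 0.458, adjusted p 0.153).

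The nodes also differed from each other. S100a8 was 69.0-fold higher in the joint than in the skin node (log2 fold change 6.11, SE 0.498, adjusted p 7.36e-06) and S100a9 54.9-fold higher (log2 fold change 5.78, SE 0.450, adjusted p 6.81e-06). The change of migrated cells over the steady-state node was more negative in the joint by 3.70 for S100a8 (difference of log2 changes -3.70, SE 0.678, adjusted p 0.00452) and by 3.21 for S100a9 (-3.21, SE 0.601, adjusted p 0.00524).

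S100a8 and S100a9 together took 0.377%, 0.683% and 1.21% of all assigned counts in joint nonmigrated replicates 1 to 3, and 0.0721% to 0.146% in skin nonmigrated cells. In migrated libraries their share was 0.00492% at most. Of the counts of all 10 members they made up 59.0% to 85.8% in joint nonmigrated, 25.3% to 42.1% in skin nonmigrated and 52.3% to 64.4% in joint node libraries, but 3.48% at most in migrated cells. The count ratio of S100a9 to S100a8 lay between 1.34 and 1.52 in nonmigrated cells of the joint, between 1.43 and 1.64 in its migrated cells and between 1.40 and 1.56 in its node. In skin nonmigrated replicates 1 to 3 it was 1.04, 1.09 and 1.47.

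Granulocyte markers moved with this pair in some comparisons and not in others. The 6 mature neutrophil genes summed to 1209, 1908 and 3079 CPM in joint nonmigrated replicates 1 to 3 and the 8 granulocyte precursor genes to 4085, 8698 and 13747 CPM, the order of S100a8 and S100a9. In skin nonmigrated cells the mature genes reached 950 to 1888 CPM, which overlapped the joint libraries, and the precursor genes 16.7 to 57.6 CPM. All 8 precursor genes were called higher in joint than in skin nonmigrated cells (median log2 fold change 9.08). Of tested genes 5.45% were called higher there and 8.86% lower. Of these 8 genes 2 had 3 counts at most in every skin nonmigrated library, so the median includes folds against the floor. Of the 6 mature genes 3 were called higher in the joint, Ly6g (55.6 ± 33.1 against 4.11 ± 1.81 CPM), Mmp9 and Retnlg, 1 was called lower, Il1r2 (99.5 ± 42.6 against 556 ± 291 CPM), and the median was 1.11. Keratinocyte genes, whose cells can also express this pair when stressed, summed to 200, 369 and 42.8 CPM in skin nonmigrated replicates 1 to 3 and to 13.4 to 15.6 CPM in joint nonmigrated cells, and skin replicate 3 was lowest for both. The sort for viable single CD45+ cells is meant to leave keratinocytes out. The joint node held 130 to 242 CPM of mature neutrophil and 199 to 321 CPM of precursor genes, against 8.40 to 12.3 and 2.57 to 4.64 CPM in the skin node. In skin migrated cells over the skin node, where the pair was not called, 3 of 6 mature genes rose and 0 fell (median 1.07). Of tested genes 21.5% rose there. In migrated cells the mature sums of the sites overlapped (27.7 to 82.8 CPM in the joint, 46.4 to 66.5 CPM in the skin). The precursor sums did not (16.7 to 21.7 against 1.02 to 5.58 CPM). The part of these cells in the S100a8 and S100a9 levels was not tested.

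Relative to single markers the order of the sites depended on the marker. The ratio of S100a8 to Csf3r, the receptor of granulocyte colony-stimulating factor carried by neutrophils, was 5.61, 7.60 and 9.65 in joint nonmigrated libraries and 1.29, 1.27 and 0.790 in skin nonmigrated libraries. The ratio of S100a8 to Ngp, a granule protein gene of maturing neutrophils, was 0.773 to 0.860 in the joint and 25.8 to 40.9 in the skin. In the joint node that ratio was 1.19 to 1.36. Of the other mature neutrophil genes, Cxcr2 and Il1r2 gave higher ratios in every joint library, as Csf3r did (26.3 to 27.9 against 3.08 to 4.88 for Cxcr2). Ly6g and Retnlg gave higher ratios in every skin library (136 to 153 against 60.7 to 76.7 for Ly6g), and the ratios to Mmp9 overlapped. These are ratios of counts without correction for length.

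**Figure D2:**
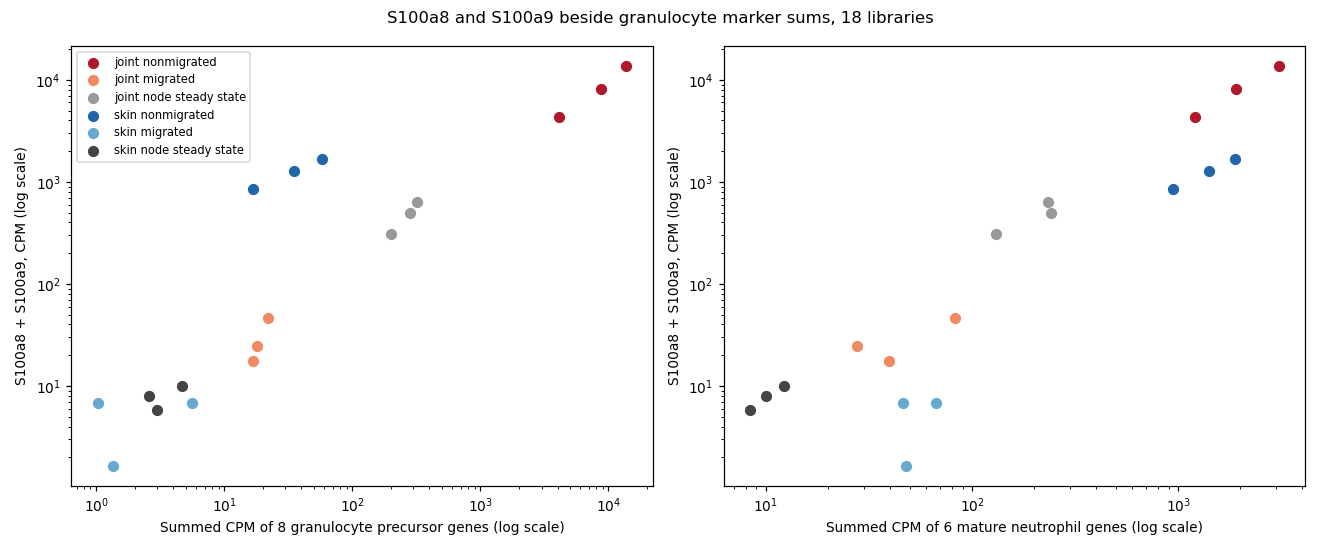
Summed CPM of S100a8 and S100a9 against the summed CPM of 8 granulocyte precursor genes (left) and 6 mature neutrophil genes (right) in each of 18 libraries, on logarithmic axes, coloured by group. Skin nonmigrated libraries sit at 16.7 to 57.6 CPM of precursor genes, far left of the joint nonmigrated libraries at 4085 to 13747 CPM, while on the right the sites lie close together.

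S100a4, S100a6, S100a10 and S100a11 formed the abundant cytoplasmic group. S100a4 is known for binding nonmuscle myosin, S100a10 pairs with annexin A2, S100a11 with annexin A1, and S100a6 (calcyclin) with the calcyclin-binding protein Cacybp. All 4 were high in nonmigrated cells, stood at 175.8 CPM or more in every migrated library and were far lower in the steady-state nodes. They lie in the order S100a4 (chromosome 3, 90603771 to 90606045), S100a6 (90612882 to 90624181), S100a11 (93520488 to 93526287) and S100a10 (93555080 to 93564643).

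S100a6 stood at 764, 728 and 539.6 CPM in joint nonmigrated and at 258, 212 and 176 CPM in joint migrated cells, with no overlap. It fell by 1.65 on the log2 scale (SE 0.162, 3.14-fold, adjusted p 7.66e-06). In the skin it went from 596 ± 27.2 to 253 ± 14.9 CPM, a log2 fold change of -1.24 (SE 0.161, 2.36-fold, adjusted p 5.92e-05). The steady-state nodes held 39.4 ± 8.60 CPM in the joint and 12.4 ± 0.635 CPM in the skin, so that migrated cells exceeded them 5.59-fold (log2 fold change 2.48, SE 0.163, adjusted p 7.13e-08) and 20.9-fold (log2 fold change 4.38, SE 0.179, adjusted p 1.02e-09).

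S100a4 behaved differently from its neighbour. Joint nonmigrated cells held 548, 531 and 350.2 CPM and joint migrated cells 293, 336 and 319.8 CPM, which do not overlap, and the log2 fold change of -0.59 (SE 0.156, adjusted p 0.00701) stayed inside the fold limit. In the skin the migrated libraries were the higher ones, with 388, 424 and 461 CPM against 361, 348 and 381 CPM, a log2 fold change of 0.22 (SE 0.155, adjusted p 0.244). The difference between the sites was -0.81 (SE 0.220, adjusted p 0.0444), short of the fold limit. Against the steady-state node S100a4 showed the largest rise of any member, from 10.6 ± 0.656 to 424 ± 36.1 CPM in the skin (log2 fold change 5.35, SE 0.143, 40.9-fold, adjusted p 6.32e-11) and from 28.1 ± 4.44 to 316 ± 21.7 CPM in the joint (log2 fold change 3.52, SE 0.130, 11.5-fold, adjusted p 1.81e-09).

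In GENCODE M21, 302 of the 584 exonic bases of S100a4 (51.7%) are shared on the same strand with the predicted gene Gm42674. HTSeq's default mode drops reads that fall on both. The count table holds both genes, so the level of S100a4 is a lower limit as far as they overlap in the counting annotation. Its fold changes compare the same gene across libraries. Gm42674 itself held 2 counts at most in any library.

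The rises of S100a4 and S100a6 over the node were smaller in the joint than in the skin. The difference of these log2 rises, joint minus skin, was -1.83 for S100a4 (SE 0.171, adjusted p 4.82e-05) and -1.90 for S100a6 (SE 0.224, adjusted p 0.000247). The steady-state levels differed in the same comparison, with S100a4 2.64-fold (log2 fold change 1.40, SE 0.124, adjusted p 1.56e-05) and S100a6 3.16-fold (log2 fold change 1.66, SE 0.163, adjusted p 3.68e-05) higher in the joint node. Migrated cells of the sites were closer, at a log2 fold change of -0.42 for S100a4 (SE 0.156, adjusted p 0.197) and -0.23 for S100a6 (SE 0.158, adjusted p 0.502), joint over skin.

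S100a11 had 909 ± 71.8 CPM in joint nonmigrated and 916 ± 36.8 CPM in skin nonmigrated cells, the closest match of the sites among the members (log2 fold change -0.01, SE 0.127, adjusted p 0.943). It fell to 432 ± 55.2 CPM in joint migrated cells (log2 fold change -1.07, SE 0.128, adjusted p 3.13e-05). The call rests on the fold limit, since without joint migrated replicate 1 the log2 fold change was -0.96. In skin migrated cells it stood at 488 ± 49.8 CPM, a log2 fold change of -0.91 (SE 0.128, adjusted p 0.000103), inside the limit but past it without skin migrated replicate 3 (-1.01). Over the nodes, at 117 ± 23.0 and 74.8 ± 10.3 CPM, it was 3.78-fold higher in joint migrated (adjusted p 4.41e-07) and 6.67-fold higher in skin migrated cells (adjusted p 1.31e-08).

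S100a10 went from 619 ± 158 to 322 ± 67.8 CPM in the joint and from 512 ± 75.7 to 349.8 ± 26.4 CPM in the skin. The libraries did not overlap, but the log2 fold changes of -0.94 (SE 0.205, adjusted p 0.00219) and -0.55 (SE 0.204, adjusted p 0.0363) stayed inside the fold limit. In the joint the call was made without joint nonmigrated replicate 3 (-1.14) or joint migrated replicate 1 (-1.11). The steady-state nodes did not differ detectably, at 108 ± 21.4 CPM in the joint and 100.2 ± 3.63 CPM in the skin (log2 fold change 0.10, SE 0.156, adjusted p 0.785). Migrated cells exceeded them 3.06-fold in the joint (adjusted p 2.45e-06) and 3.57-fold in the skin (adjusted p 4.36e-07).

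**Figure D3:**
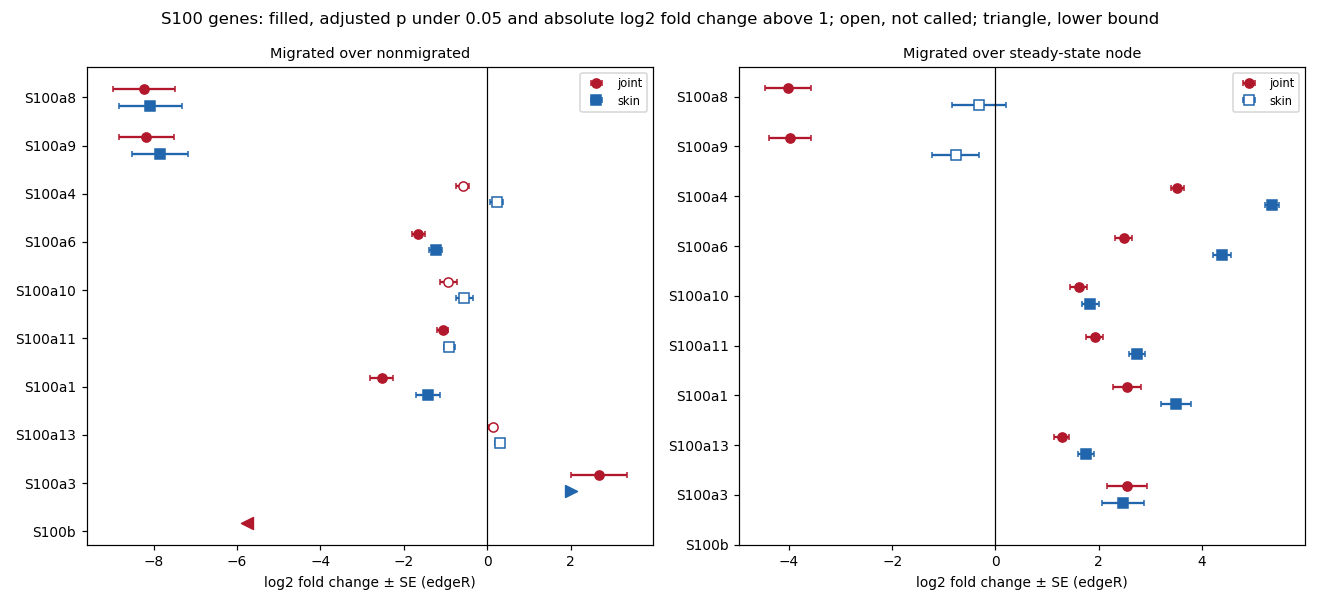
Log2 fold changes with standard errors from edgeR for migrated over nonmigrated (left) and migrated over steady-state node (right), joint as circles and skin as squares. Filled symbols were called, open symbols were not, and the triangles of S100a3 (skin) and S100b (joint) are lower bounds. S100a8 and S100a9 lie beyond -7 on the left at both sites, and S100a4 reaches 5.35 on the right in the skin. S100b was not fitted on the right.

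S100a1 and S100a13 are transcribed away from each other from starts that lie almost back to back. S100a1 encodes a calcium sensor best known from heart and skeletal muscle (chromosome 3, 90511034 to 90514392, minus strand), and the product of S100a13 takes part in the unconventional release of fibroblast growth factor 1 and interleukin 1 alpha (90514435 to 90524581, plus strand). The 42 bases between their GENCODE starts, chr3:90514393-90514434, shown on the plus strand because the genes on either side of them moved differently, are 54.8% G or C and hold none of the 3 motifs. The RefSeq starts are 104 bases apart.
S100a1 to S100a13: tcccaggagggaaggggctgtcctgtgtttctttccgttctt

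S100a1 stood at 42.7, 48.2 and 36.2 CPM in joint nonmigrated and at 5.09, 8.36 and 8.45 CPM in joint migrated cells. It fell by 2.54 on the log2 scale (SE 0.286, 5.80-fold, adjusted p 2.05e-05), with no overlap. Skin nonmigrated libraries held 20.8, 14.8 and 33.4 CPM and skin migrated libraries 9.13, 7.49 and 9.09 CPM, a log2 fold change of -1.43 (SE 0.282, 2.69-fold, adjusted p 0.00115). The migration changes differed by -1.11, joint minus skin (SE 0.389, adjusted p 0.101). Without skin nonmigrated replicate 3, the highest skin library, that difference was called, at -1.48 with an edgeR adjusted p of 0.00803, as were 2610 of all genes in place of 1029. Between the nonmigrated cells S100a1 had a log2 fold change of 0.88, joint over skin (SE 0.273, adjusted p 0.0328), and 1.25 without the same library, which adds it to the calls of that comparison (4 members in place of 3, and 3720 of all genes in place of 2400).

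S100a13 stayed near its tissue level in the same libraries. It stood at 40.4, 44.2 and 38.9 CPM in joint nonmigrated and 51.6, 42.1 and 41.2 CPM in joint migrated cells, which overlap, with a log2 fold change of 0.13 (SE 0.108, adjusted p 0.34). In the skin it went from 46.8 ± 1.5 to 57.9 ± 3.80 CPM, a log2 fold change of 0.30 (SE 0.109, adjusted p 0.0331), inside the fold limit. The nodes held 18.9 ± 3.99 CPM in the joint and 17.6 ± 1.82 CPM in the skin, and migrated cells exceeded them 2.43-fold (adjusted p 1.14e-05) and 3.37-fold (adjusted p 4.1e-07), the smallest rises in the joint and in the skin among the 7 members that rose at each site.

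S100a1 was at 1.28 ± 0.324 CPM in the joint node and 0.769 ± 0.235 CPM in the skin node. Migrated cells exceeded these 5.84-fold (adjusted p 4.36e-06) and 11.2-fold (adjusted p 2.34e-07). The 4 skeletal muscle genes, a possible source of S100a1 transcripts, summed to 4.15 to 6.43 CPM in joint nonmigrated and 5.70 to 7.59 CPM in skin nonmigrated cells. The CD45+ sort is meant to leave muscle out, and the part of these genes' cells in the S100a1 level was not tested.

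**Figure D4:**
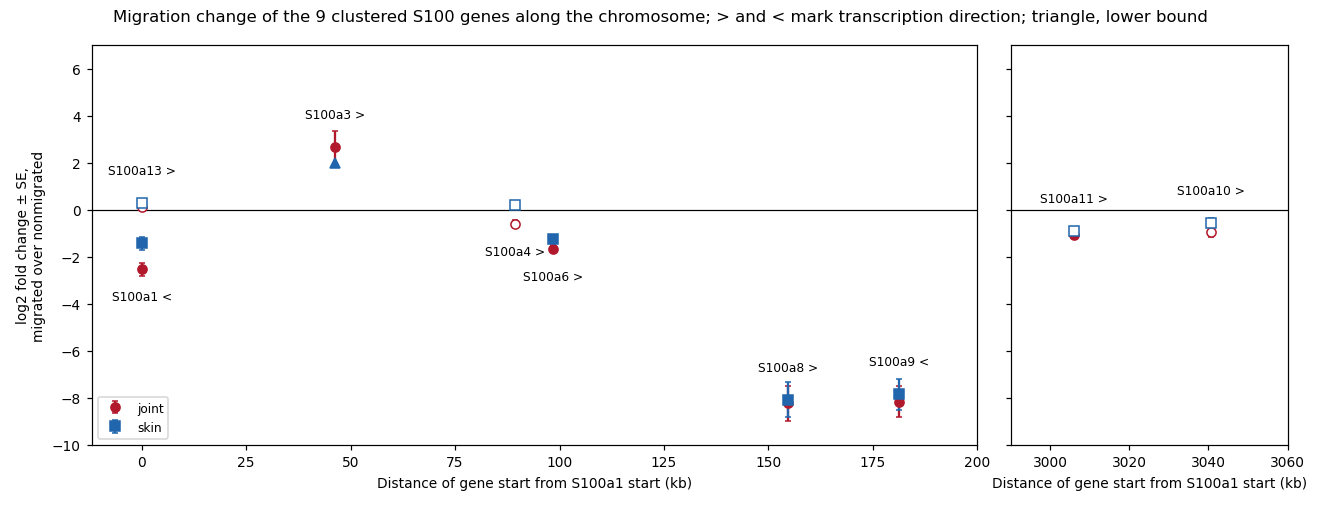
Log2 fold changes of migrated over nonmigrated cells, with standard errors, for the 9 S100 genes of chromosome 3, placed by the distance of their start from that of S100a1 in kb, joint as circles and skin as squares. Filled symbols were called, and the triangle of S100a3 is a lower bound for the skin. S100a1 and S100a13, 0.043 kb apart, lie on different levels, and S100a8 and S100a9 at 155 and 181 kb lie together.

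S100a3 and S100b were close to the floor of detection, taken as 3 counts (0.0616 to 0.180 CPM, depending on the library). S100a3, known as a gene of the hair cuticle, spans chromosome 3 from 90560578 to 90602702 on the plus strand. It had 0, 4 and 6 counts in joint nonmigrated and 28, 35 and 29 counts in joint migrated libraries, and 1, 0 and 1 counts in skin nonmigrated and 12, 11 and 21 counts in skin migrated libraries. It was the only member called higher in migrated than in nonmigrated cells. The log2 fold change was 2.67 in the joint (SE 0.672, adjusted p 0.00532), 2.06 without joint nonmigrated replicate 1 and 3.35 without joint nonmigrated replicate 3. In the skin the mean of 0.680 CPM was at least 3.99-fold above the floor of 3 counts per library (adjusted p 0.00276 in the fit).

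The steady-state nodes held 3 to 6 counts of S100a3. Migrated cells exceeded them 5.84-fold in the joint (adjusted p 0.000101) and 5.52-fold in the skin (adjusted p 0.000129), and did not differ detectably from each other (log2 fold change -0.02, SE 0.569, adjusted p 0.992). The levels are below 1 CPM throughout, and 144 exonic bases are shared with Gm42674 and 117 with the small nuclear RNA gene Gm23464 on the opposite strand, where reads may have been dropped.

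S100b, a gene best known from astrocytes and Schwann cells, was detected in joint nonmigrated cells, with counts of 189, 128 and 39, or 5.17, 4.25 and 1.17 CPM. In the other 15 libraries it had 5 counts at most. Joint nonmigrated cells were at least 54.1-fold above the floor of joint migrated cells, which had 1, 2 and 0 counts (adjusted p 0.000107), and at least 20.7-fold above that of skin nonmigrated cells, which had 1, 1 and 5 counts (adjusted p 0.00286). Of the Schwann cell and melanocyte markers, Sox10 had 3 counts at most in joint nonmigrated libraries and Dct and Mlana had 0, and the 6 genes summed to 1.76 to 2.38 CPM there, against 2.16 to 4.21 CPM in skin nonmigrated cells and up to 19.9 CPM in the steady-state nodes. S100b is annotated inside the span of Dip2a on the opposite strand, with 0 exonic bases shared.

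The order of the members by level, taken as mean CPM per kb of exonic length, changed from group to group. In joint nonmigrated cells S100a9 led with 9815 CPM per kb, ahead of S100a8 at 5107 and S100a11 at 1779.5. In skin nonmigrated cells S100a11 led with 1793, ahead of S100a9 at 1299 and S100a8 at 852. S100a11 also led in migrated cells, with 846 in the joint and 955 in the skin, and in the skin node with 146, but the joint node kept S100a9 first with 547.5 CPM per kb. Neighbours in the order whose libraries overlapped included S100a10 and S100a6 in joint nonmigrated cells (511 and 495 CPM per kb) and S100a1 and S100a13 in the same cells (61.1 and 57.6). Counted over its 282 unshared exonic bases alone, S100a4 would stand at 1121 CPM per kb in joint migrated and 1505 in skin migrated cells, above S100a11, so the place of S100a4 in the order cannot be fixed.

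Receptors described for extracellular S100 proteins were fixed as a list of 8 genes. In joint migrated against joint nonmigrated cells 7 of the 8 fell and 0 rose, where 18.4% of tested genes fell, with a median log2 fold change of -3.50. In the skin 6 fell and 0 rose, where 19.7% of tested genes fell, with a median of -3.93. Cd14, the co-receptor that hands ligands to Toll-like receptor 4, went from 1401 ± 124 to 6.66 ± 4.80 CPM in the joint (log2 fold change -7.71, SE 0.660, adjusted p 3.06e-06). Tlr4 itself went from 94.1 ± 22.2 to 2.51 ± 0.487 CPM (log2 fold change -5.23, SE 0.305, adjusted p 2.78e-07). The scavenger receptor gene Cd36 had a log2 fold change of -6.18 (SE 0.428) in the joint and -8.01 (SE 0.481) in the skin, and Cd33, which encodes a sialic acid-binding inhibitory receptor, -5.60 (SE 0.315) and -6.40 (SE 0.338).

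The remaining receptors changed less. Ly96, which encodes the MD-2 subunit bound to Toll-like receptor 4, fell in the joint (log2 fold change -1.29, SE 0.264) and had a log2 fold change of -0.68 in the skin. Ager, the gene of the receptor for advanced glycation end products, was low in every group, at 6.10 ± 0.895 CPM in joint nonmigrated and 3.35 ± 0.937 CPM in joint migrated cells (log2 fold change -0.86, SE 0.300, adjusted p 0.0282), and was called in the skin (-1.11, SE 0.312, adjusted p 0.00942). Bsg, which encodes basigin, fell at both sites and still stood at 118 ± 1.54 CPM in joint migrated and 134 ± 8.72 CPM in skin migrated cells. Against the steady-state joint node Tlr4, Cd14 and Cd33 fell and Ly96 rose (log2 fold change 1.81, SE 0.217), where 7.31% of tested genes fell and 16.9% rose. Over the skin node 3 receptors rose, where 21.5% of tested genes did: Cd14, from 0.492 ± 0.135 to 7.81 ± 4.81 CPM (log2 fold change 3.99, SE 0.617), Ly96 (3.05, SE 0.233) and the adhesion molecule gene Mcam (1.18, SE 0.309). There Ager, Cd36 and Tlr4 fell, with log2 fold changes of -1.51, -1.56 and -1.66, where 15% of tested genes fell. Of these receptor genes Cd14, Tlr4 and Cd33 are carried largely by myeloid cells. The 7 monocyte and macrophage markers summed to 5268 to 7326 CPM in joint nonmigrated and 278 to 413 CPM in joint migrated cells. The part of those cells in the receptor levels was not tested.

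Of 11 genes for intracellular S100 partners, 10 were tested among the inflamed libraries. In the joint 4 were lower in migrated than in nonmigrated cells and 1 was higher, against 18.4% and 16% of tested genes. The median log2 fold change was -0.45. In the skin 3 fell and 1 rose, against 19.7% and 15.7%, with a median of -0.47. Anxa2, whose protein pairs with that of S100a10, went from 1814 ± 359 to 681 ± 144 CPM in the joint (log2 fold change -1.41, SE 0.198, adjusted p 0.000104). Anxa1, the annexin of S100a11, fell further, from 1093 ± 184 to 31.3 ± 5.10 CPM (log2 fold change -5.12, SE 0.233, adjusted p 8.43e-08). Il1a, whose release involves S100a13, went from 83.3 ± 33.0 to 1.02 ± 0.790 CPM in the joint (log2 fold change -6.34, SE 0.582) and from 392 ± 156 to 1.22 ± 0.514 CPM in the skin (-8.32, SE 0.639), while S100a13 had log2 fold changes of 0.13 and 0.30.

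Partners of the cytoskeleton and of S100a6 had smaller fold changes. Myh9, the nonmuscle myosin heavy chain bound by S100a4, had log2 fold changes of 0.64 (SE 0.139) in the joint and 0.54 (SE 0.138) in the skin, inside the fold limit. Cacybp had 46.2 ± 3.00 CPM in joint nonmigrated and 46.7 ± 3.78 CPM in joint migrated cells. In the skin its libraries did not overlap, at 52.9 ± 4.21 CPM in nonmigrated and 88.2 ± 7.55 CPM in migrated cells, with a log2 fold change of 0.73 (SE 0.106, adjusted p 0.000131) inside the fold limit. Over the steady-state nodes 4 of 10 partners rose in the joint, where 16.9% of tested genes rose, and 7 in the skin, where 21.5% rose, with medians of 0.56 and 1.69. Anxa2 had the clearest rise, from 58.8 ± 3.02 to 681 CPM in the joint (log2 fold change 3.57, SE 0.166, adjusted p 4.76e-09) and from 24.4 ± 0.805 to 960.4 ± 154 CPM in the skin (5.33, SE 0.181, adjusted p 2.96e-10).

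**Figure D5:**
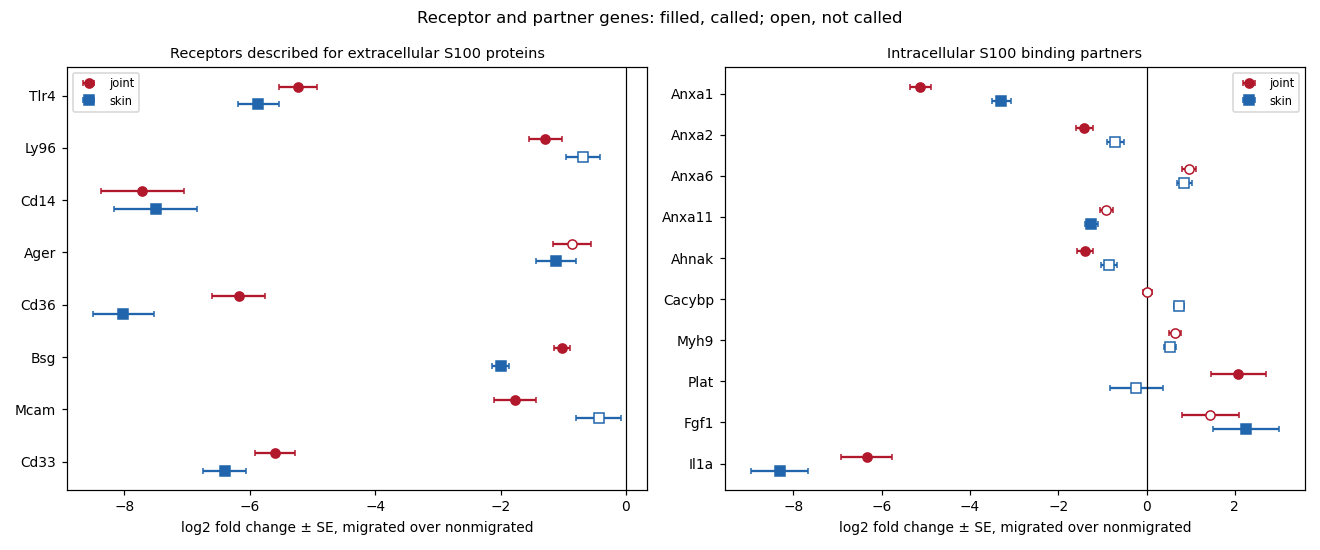
Log2 fold changes with standard errors, migrated over nonmigrated, of 8 receptor genes (left) and 10 tested partner genes (right), joint as circles and skin as squares, filled where called. Cd14, Cd36, Cd33 and Tlr4 lie below -5 at both sites, whereas Anxa6, Cacybp and Myh9 lie between 0 and 1.

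Other S100 genes and genes of S100-fused epidermal proteins were nearly silent. Of 16 listed, 14 were in the table, and 9 to 13 of these had 3 counts at most in every library of a group. S100a14, an epithelial member, reached 1.32, 3.86 and 0.156 CPM in skin nonmigrated replicates 1 to 3, the order of the keratinocyte genes. It was called lower in joint nonmigrated cells (adjusted p 0.00579), which had 1 to 4 counts, too few for a fold. Skin nonmigrated replicate 3 had only 3 counts itself. S100a16 had 1.33 CPM in joint and 2.03 CPM in skin nonmigrated cells and was lower in migrated cells. It had 2 counts at most in joint migrated libraries (adjusted p 0.000298) and a log2 fold change of -1.94 in the skin (SE 0.687, adjusted p 0.0302). The part of keratinocytes in these values was not tested.

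For each member the genes of most similar pattern were sought among 13531 genes with a mean of at least 1 CPM, as the highest Pearson correlations of log2(CPM + 1) over the 18 libraries, which are described here without a test because libraries of a group share their source. S100a8 and S100a9 were closest to Lcn2 (r = 0.986 and 0.989), which encodes the iron-trapping granule protein lipocalin 2, and then to Hp, which encodes haptoglobin. S100a6 and S100a11 shared Anxa2 among their closest genes (r = 0.986 and 0.990). S100a4 was closest to Itgb1, the integrin beta 1 gene (r = 0.990), S100a10 to the calpain gene Capn2 (r = 0.987) and then to Vim, the vimentin gene, and S100a1 to Tmbim1 (r = 0.994). S100a3 was closest to Tmem158 (r = 0.968), which had 0.997 CPM at most in joint nonmigrated libraries and at least 6.18 CPM in joint migrated libraries.

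S100b was closest to Vsig4, a complement receptor gene of tissue-resident macrophages (r = 0.980), at 44.3, 44.3 and 15.2 CPM in joint nonmigrated libraries and 0.832 CPM at most in skin nonmigrated libraries. Since S100b had 5 counts at most outside the joint nonmigrated libraries, this r rests mainly on that group. Among the joint nonmigrated libraries S100b and Vsig4 were lowest in replicate 3, the library with the most S100a8. Among the members themselves S100a8 and S100a9 had the highest correlation over the 18 libraries (r = 0.998), and also after the group means were taken out (r = 0.957). S100a6 and S100a10 followed within groups (r = 0.901). S100a3 had negative correlations with S100a8 and S100a9 over all libraries (r = -0.618 and -0.621). After the group means were taken out these were positive (r = 0.226 and 0.396), so the negative values come from differences between groups.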

How the data were processed

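RNA-seq read counts of 18 libraries of sorted mouse leukocytes were analysed, 3 in each of 6 groups taken from the sample labels. The authors deposited raw counts per Ensembl gene. Per the labels and the methods, reads were screened with FastQC, trimmed with Trim-Galore!, aligned with TopHat2 to mm10 with release 87 transcripts and counted with HTSeq in its default mode. The unaligned, ambiguous and other summary lines, 11.3% to 15.1% of each column, were left out.

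Genes were matched to GENCODE M21 (49326 of 49585). Counts were tested with edgeR 4.0.16 (quasi-likelihood, TMM, and filterByExpr at its minimum of 10 counts, under R 4.3.3), in a fit of the 12 inflamed libraries (16777 genes) and a fit of the 12 node libraries (17107 genes), with Benjamini-Hochberg adjustment over all tested genes. A call needed an adjusted p under 0.05 and a log2 fold change beyond 1 either way, the limits of the study's methods, which used DESeq2. Each SE came from the fold change and the F statistic of its test. Folds against a group without a library above 3 counts, or with a mean below 3 counts per library, are bounds against 3 counts per library, which cover counting error only. CPM were scaled over all 18 libraries. Scripts were tested on simulated data.

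The genes named are the 10 members, the listed other S100 genes, receptors, partners and markers of 15 cell types, and the 2 genes closest in pattern to each member. The members and lists were chosen with earlier results of these data known. Sequences come from the RefSeq promoter table (GRCm38.p6), which matched 9 members. Protein sequences were not used here. Alternatives were an adjusted p under 0.001, no minimum fold, DESeq2 1.42.0 (size factors or Wald test), TMM without S100a8 and S100a9, no filter, a replicate block, other sets of libraries in the fit, and each library left out in turn. Figures were drawn with matplotlib.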

Additional observations from a re-analysis of the deposited data

Results flagged for a closer look

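The change of migrated cells over the steady-state node was compared between the sites by an interaction term in edgeR. It was called different for 4 of the 9 members tested. Of all tested genes 3.78% were called below 0, 2.33% above 0 and 6.11% either way. The difference of log2 changes, joint minus skin, was -3.70 for S100a8, -3.21 for S100a9, -1.83 for S100a4 and -1.90 for S100a6. For S100a8 and S100a9 the joint change was a fall and the skin change was not called, and for S100a4 and S100a6 both sites rose and the joint rose less. In each case the steady-state joint node was above the steady-state skin node, and the B cell genes of these nodes summed to 4219 to 4308 CPM in the joint and 2744 to 3661 CPM in the skin. Marker lists differed in the same comparison. Of the mature neutrophil genes 5 of 6 were called with a more negative change in the joint (median -3.67), of the granulocyte precursor genes 3 of 7 tested (median -2.47) and of the monocyte and macrophage genes 6 of 7 (median -2.46), whereas all 5 B cell genes were called in the other direction (median 1.85). The part of these cells was not tested. Of the 8 precursor genes listed, 4 had 3 counts at most in every skin migrated library and 5 in every skin node library. Their median therefore rests partly on the floor and is not comparable with the others. Of the mature neutrophil genes 1 was that low in skin migrated and 1 in skin node libraries. The sample titles name the steady-state nodes differently (PBS and KG in the joint, Naive in the skin), so that site and handling of these nodes cannot be told apart. Skin migrated libraries were also shallower than all those of the skin node, whereas joint migrated and joint node libraries overlapped in depth, so depth cannot be told apart from these differences either.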

How the results depend on the processing

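Of 86 results on members with a test, 40 were called, 30 of these in the same direction under every alternative run, and 0 called values reversed. The calls against the steady-state nodes (9 in the joint, 7 in the skin) kept their counts under every alternative. With an adjusted p under 0.001 the counts became 3 for skin migrated over nonmigrated (main 5) and 0 for joint over skin nonmigrated (main 3). They became 0 for joint over skin migrated (main 1) and 2 for the migrated-over-node difference (main 4). With no minimum fold they became 8 for skin migration and 1 for the migration difference (main 0). DESeq2 gave 1 for the migration difference and 2 for joint over skin migrated, where the count was also 2 with no filter and with all 18 libraries fitted, S100a8 joining S100a9. Leaving out 1 library gave 7 to 8 calls for joint migration, 5 to 6 for skin migration, 3 to 4 for joint over skin nonmigrated, 0 to 0 for joint over skin migrated and 0 to 1 for the migration difference. The fit of only the compared groups was not run for the 2 differences of changes, which need 4 groups.

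Values that changed sign were all uncalled. With no filter S100a11 became 0.042 for joint over skin nonmigrated and S100a3 0.039 for joint over skin migrated. With 1 library left out, S100a11 ran from -0.076 to 0.030 in the former, and S100a3 from -0.18 to 0.31 and S100a10 from -0.28 to 0.024 in the latter. The migration difference ran from -0.61 to 0.34 for S100a8 and -0.77 to 0.15 for S100a9. S100a8 ran from -0.85 to 0.091 for skin migrated over its node, and between the nodes S100a10 ran from -0.078 to 0.19 and S100a13 from -0.084 to 0.20. The migrated-over-node difference ran from -0.030 to 0.43 for S100a3 and -0.41 to 0.0027 for S100a10. The cause of these changes was not tested beyond the libraries left out.

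Whether replicate numbers pair the libraries could not be settled. Deviations from group means correlated at 0.021 to 0.254 between joint nonmigrated and migrated libraries of the same number and at 0.0735 to 0.173 in the skin. Here 5 of 6 joint and 6 of 6 skin libraries correlated best with their own number. The same held for 5 of 6 libraries between joint and skin migrated cells. Between migrated and steady-state libraries of the same number the correlations were below 0. The replicate block lies within each site, so a comparison between sites pairs no libraries and is a mean over the replicates. With it 0 members were called for joint over skin migrated, where S100a9 had an adjusted p of 0.062 and S100a3 became 0.032, and the counts of the other comparisons stayed within 1.5 times. Over all genes it gave 2405 calls in place of 2400 for joint over skin nonmigrated, 138 in place of 191 for joint over skin migrated and 612 in place of 665 between the nodes. DESeq2 gave 465 for joint over skin migrated and 1729 in place of 1029 for the migration difference. An adjusted p under 0.001 gave 3586 of 5757 for joint and 3508 of 5940 for skin migration. It gave 511, 0, 246 and 20 in place of 2400, 191, 665 and 1029, 2714 of 4143 for the joint node and 152 of 1045 for the migrated-over-node difference. The depth of 3 counts, 0.0616 to 0.180 CPM, limits S100a3 and S100b.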

Other observations

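The remaining cell type lists gave the makeup of the libraries around the S100 values. The 6 T cell genes summed to 160 to 313 CPM in joint nonmigrated, 244 to 662 CPM in skin nonmigrated, and 1283 to 1963 CPM in the 12 node and migrated libraries. The 4 natural killer cell genes were lowest in joint nonmigrated and steady-state libraries, at 44.0 to 74.6 CPM, and summed to 129 to 458 CPM in skin nonmigrated and 212 to 327 CPM in migrated cells. The 4 mast cell genes varied widely within groups, from 11.1 to 310 CPM in skin nonmigrated and from 17.9 to 246 CPM in joint migrated cells, and stayed at or under 5.23 CPM in skin migrated cells and 2.51 CPM in the nodes. The 4 eosinophil genes ranged from 5.496 to 90.6 CPM in nonmigrated cells and did not exceed 16.5 CPM elsewhere. The 5 fibroblast genes summed to 57.5 to 353 CPM in nonmigrated cells and 2.15 CPM at most elsewhere, and the 4 chondrocyte genes to 4.84 to 13.5 CPM in nonmigrated cells and 2.61 CPM at most elsewhere. The 4 endothelial genes were highest in the steady-state nodes, at 212 to 259 CPM. The part of any of these cells in the S100 levels was not tested.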
